A study of Homo sapiens with 16 samples.

Results

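The NRF2 antioxidant response was followed through 9 genes in HMC3 cells, an established human cell line sold as microglial. The genes were NFE2L2, KEAP1, NQO1, HMOX1, GCLC, GCLM, SLC7A11, TXNRD1 and SRXN1. They were taken by symbol from the deposited count table, in which each matched 1 of 25370 genes, and all 9 had counts high enough to be tested. RNA was sequenced from 16 libraries in 8 groups of 2. The groups were vehicle, 0.1 nM estradiol (E2), 400 nM ketamine, 400 nM 2R6R-HNK, 400 nM 2S6S-HNK, and the same 3 compounds at 400 nM together with 0.1 nM E2 (E2+ketamine, E2+2R6R-HNK and E2+2S6S-HNK). 2R6R-HNK and 2S6S-HNK are stereoisomers of hydroxynorketamine, a metabolite of ketamine. All groups had spent 24 h in medium with 5% charcoal-stripped serum and 24 h without serum, and were then treated for 24 h in serum-free medium, so that the vehicle cells were also serum-deprived.

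NFE2L2 encodes NRF2, a transcription factor that is held back by KEAP1, which presents it to a ubiquitin ligase for degradation. When oxidants or electrophiles modify KEAP1, NRF2 escapes, pairs with a small MAF protein and binds antioxidant response elements (AREs) near genes for glutathione synthesis, thioredoxin recycling, quinone reduction and heme breakdown. NRF2 activity is set largely at the protein level, which RNA counts do not measure. In microglia the pathway is known for restraining oxidative and inflammatory responses.

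The libraries held 55300614 to 81646165 counts, levels are given as CPM (counts scaled to one common library size), and 16004 genes passed the filter on low counts. A gene was called at an adjusted p under 0.05 by edgeR's quasi-likelihood test, adjusted over these genes after Benjamini and Hochberg, and every adjusted p below comes from it unless another tool is named. The 95% intervals are not adjusted. The labels do not say that the 2 libraries of a group came from separate cultures, so the p-values may measure technical spread only. An exact permutation test of 1 gene cannot reach 0.05 at 2 libraries per group and was not used. Replicates were close, with a common coefficient of variation of 2.81%. Most of the 16004 genes tested were called in each comparison with vehicle, so a call by itself sets no gene apart. Differences from vehicle also followed the GC content of the transcripts, with a Spearman correlation across 15358 genes of 0.45 for E2+2S6S-HNK to 0.778 for E2+ketamine. The main results are therefore followed by their values after a correction for GC content and length, which takes out a change in the cells as well where it runs with GC content. Whether the trend arose in the cells or in the libraries was not tested. Of 14 microglia and macrophage markers, 10 stayed under 1 CPM in every library. AIF1, P2RY12, TMEM119 and CX3CR1 had at most 7 counts and C1QA had 0. The other 4 were CD68, at 17.3 to 23.2 CPM, CD14, at 1.48 to 4.08, and CSF1R and TREM2, which reached 1.09 and 1.23. COL1A1, a collagen gene of fibroblasts, stood at 3840 to 5320 CPM, although COL3A1, DCN and LUM had at most 12 counts. In bulk RNA, fewer cells that express a gene and less of its RNA per cell cannot be told apart.

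**Figure D1:**
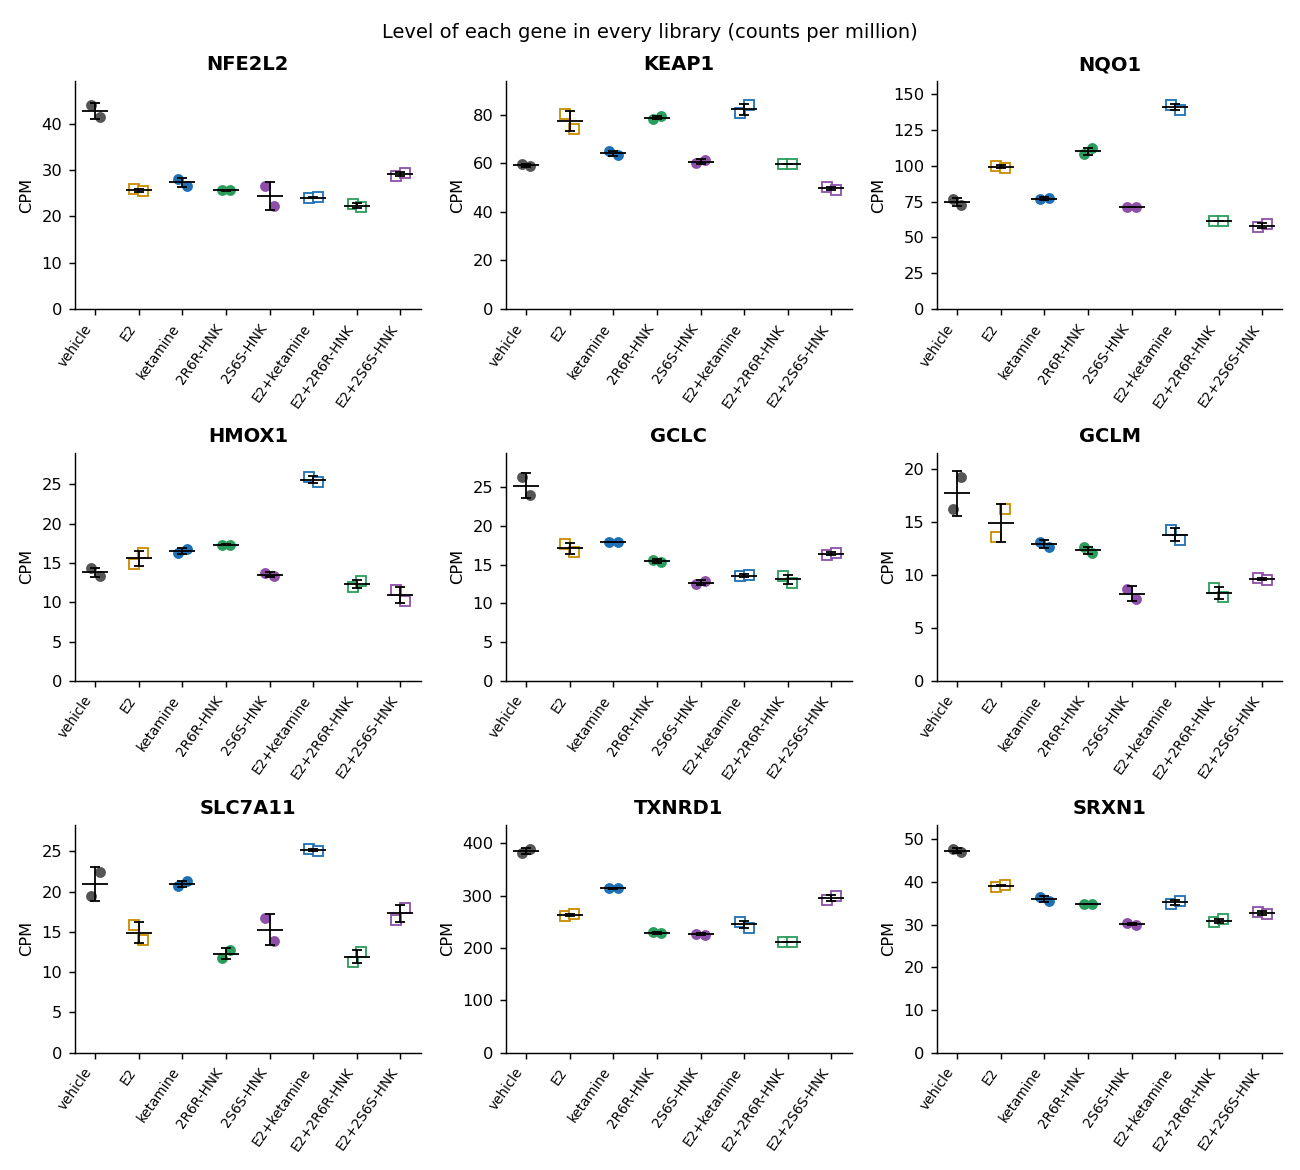
The 9 panels plot CPM (vertical axis, starting at 0) in each library by group. Circles are libraries without E2 and open squares libraries with E2, and the black bar and whiskers give the mean ± SD of the 2 libraries. The vehicle libraries are the highest for NFE2L2, GCLC, TXNRD1 and SRXN1, and the E2+ketamine libraries are the highest for NQO1, HMOX1 and SLC7A11.

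NFE2L2, the transcription factor gene itself, was lower than vehicle in every treatment. It lies at chr2:178083395-178257484 on the minus strand (GRCh37). The vehicle libraries had 44 and 41.6 CPM. The treated libraries had 25.9 and 25.5 CPM with E2, 28.1 and 26.6 with ketamine, 25.8 and 25.7 with 2R6R-HNK, and 26.6 and 22.3 with 2S6S-HNK. With E2 added, they had 24.1 and 24.2 CPM for ketamine, 22.7 and 22.0 for 2R6R-HNK, and 28.8 and 29.4 for 2S6S-HNK. All 14 treated libraries lay below both vehicle libraries. The log2 fold change ran from -0.56 (standard error 0.057, adjusted p = 3.44e-12) with E2+2S6S-HNK to -0.94 (standard error 0.058, adjusted p = 4.87e-20) with E2+2R6R-HNK, or 0.522-fold the vehicle level. After correction all 7 values stayed negative and called, between -0.30 and -0.53. In the order of levels, no 2 neighbouring treated groups differed beyond their spread, and only vehicle was separated from its neighbour. Treated groups further apart could differ, as E2+2R6R-HNK did from E2+2S6S-HNK (log2 difference -0.38, adjusted p = 2.45e-07).

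KEAP1, the repressor that binds NRF2, showed another order. It lies at chr19:10596801-10614234 on the minus strand (GRCh37), and its transcript is the richest in GC of the 9, at 60.2%. Vehicle libraries had 59.7 and 58.9 CPM. Libraries with E2 had 80.5 and 74.4 CPM, those with 2R6R-HNK 78.4 and 79.4, and those with E2+ketamine 80.7 and 83.9. These 3 groups lay above vehicle, by 0.39, 0.41 and 0.47 on the log2 scale (standard error of each 0.040; adjusted p = 4.47e-12, 3.79e-13 and 2.86e-15). The ketamine libraries, with 65.0 and 63.3 CPM, were also above vehicle (log2 fold change 0.11, adjusted p = 0.0118), although this call was lost without ketamine replicate 1 (adjusted p = 0.106) or vehicle replicate 2 (adjusted p = 0.0797). With 60 and 61.4 CPM under 2S6S-HNK and 59.9 and 59.7 under E2+2R6R-HNK, the difference from vehicle was 0.03 (95% interval -0.05 to 0.12) and 0.01 (-0.07 to 0.09). With upper-quartile scaling both were called higher, at 0.11 (adjusted p = 0.0159) and 0.09 (adjusted p = 0.0345), and after the correction for GC content and length both were called lower, at -0.43 (adjusted p = 2.48e-16) and -0.49 (adjusted p = 2.91e-19). E2+2S6S-HNK, at 50.2 and 49.2 CPM, was the lowest group, at -0.25 against vehicle on the log2 scale (standard error 0.041, adjusted p = 4.06e-07). None of the 4 rises remained after the GC and length correction. The values were then 0.01 for E2 (not called), -0.05 for 2R6R-HNK (not called), -0.21 for ketamine and -0.14 for E2+ketamine, the last 2 called as lower. The fall under E2+2S6S-HNK was called with and without correction and was -0.51 with it.

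The promoter of KEAP1 is shown because it holds matches to the ARE core, as do those of 2 other genes below. Promoter windows of 300 bases (250 before to 50 after a transcription start) came from RefSeq on GRCh38.p14, where 10 windows matched 7 of the 9 genes. HMOX1 and SLC7A11 had no window. The core was searched as TGACNNNGC on both strands. It was found in 4 of the 10 windows, in KEAP1, GCLM and both of TXNRD1, against 13.3% of 35116 windows of the same length. The AP-1 motif TGANTCA, which can overlap an ARE, was found in 0 of the 10 windows, against 7.71% of all windows. A match describes the letters only and is not a measured binding site. Sequence outside the windows was not searched, so a gene without a match here may hold one further from its start. The sequence of KEAP1 covers chr19:10502772-10502885 on the minus strand (GRCh38.p14), written 5′ to 3′ along the gene and ending at the base before the start, with the matches in capitals:
KEAP1 promoter: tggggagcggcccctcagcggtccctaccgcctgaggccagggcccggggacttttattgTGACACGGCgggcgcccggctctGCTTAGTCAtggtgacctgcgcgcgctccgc

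Glutathione is made by the ligase whose catalytic subunit is GCLC and whose modifier subunit is GCLM. GCLC lies at chr6:53362139-53481768 on the minus strand (GRCh37). Vehicle libraries had 26.3 and 24 CPM of GCLC. Those with E2 had 17.7 and 16.6 CPM, those with ketamine 17.9 and 17.9, those with 2R6R-HNK 15.6 and 15.3, and those with 2S6S-HNK 12.5 and 12.9. With E2, ketamine libraries had 13.5 and 13.7 CPM, 2R6R-HNK libraries 13.5 and 12.7, and 2S6S-HNK libraries 16.3 and 16.5. All treated libraries were below both vehicle libraries. The largest fall was under 2S6S-HNK, at a log2 fold change of -0.99 (standard error 0.069, adjusted p = 5.36e-18), or 0.504-fold the vehicle level. The smallest was under ketamine, at -0.49 (standard error 0.064, adjusted p = 3.38e-09). All 7 remained called and negative after correction, from -0.29 with E2 to -0.69 with 2S6S-HNK. In the order of levels, neighbours did not differ within the 3 lowest groups (2S6S-HNK, E2+2R6R-HNK and E2+ketamine), nor within the next 4 (2R6R-HNK, E2+2S6S-HNK, E2 and ketamine). E2+ketamine differed from 2R6R-HNK, the next above it (0.19, adjusted p = 0.0297), and ketamine from vehicle. Groups that were not neighbours could differ too, as ketamine did from 2R6R-HNK before correction (log2 difference 0.21, adjusted p = 0.00738).

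GCLM, at chr1:94350755-94375012 on the minus strand (GRCh37), was, before correction, the only one of the 9 genes to pass the study's limit of a log2 fold change of 1 against vehicle. Vehicle libraries had 16.2 and 19.2 CPM. Libraries with 2S6S-HNK had 8.70 and 7.72 CPM, those with E2+2R6R-HNK 8.72 and 7.86, and those with E2+2S6S-HNK 9.66 and 9.5. In these 3 groups every library stood well below vehicle, and the log2 fold changes were -1.11 (standard error 0.09, adjusted p = 9.88e-16), -1.09 (standard error 0.087, adjusted p = 4.51e-16) and -0.89 (standard error 0.085, adjusted p = 7.23e-13). The limit of 1 was passed by 9.08% of all genes under 2S6S-HNK and 11.5% under E2+2R6R-HNK. Under the other treatments, where none of the 9 genes passed it before correction, the share was 1.81% for E2, 3.56% for ketamine, 3.75% for 2R6R-HNK, 11% for E2+ketamine and 5.85% for E2+2S6S-HNK. After correction these 3 falls were smaller and still called, at -0.52, -0.46 and -0.57, short of the limit. The values past it were then NQO1 and SLC7A11 under E2+ketamine. The other groups had 13.6 and 16.2 CPM with E2, 13.1 and 12.6 with ketamine, 12.6 and 12.1 with 2R6R-HNK, and 14.2 and 13.3 with E2+ketamine. They were called lower, at -0.25, -0.46, -0.52 and -0.36. The higher E2 library came close to the lower vehicle library, and the call for E2 was lost without E2 replicate 1 (-0.13, adjusted p = 0.261) or vehicle replicate 2 (-0.13, adjusted p = 0.291). Correction ended or turned these 4 calls. It gave -0.03 for ketamine and 0.12 for 2R6R-HNK, neither called, and 0.29 for E2 and 0.42 for E2+ketamine, both called as higher.

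The GCLM promoter carries the same 9 bases, GCTTAGTCA, as KEAP1, 34 to 26 bases before its start, and those of KEAP1 lie 31 to 23 bases before. It is shown for that shared match, over chr1:93909431-93909524 on the minus strand (GRCh38.p14):
GCLM promoter: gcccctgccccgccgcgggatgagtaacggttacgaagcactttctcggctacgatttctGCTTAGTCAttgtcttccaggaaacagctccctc

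SLC7A11, the transporter subunit that imports cystine for glutathione synthesis, has the transcript with the least GC of the 9, at 35.4%. It lies at chr4:139085251-139163503 on the minus strand (GRCh37). Vehicle libraries had 19.5 and 22.5 CPM. Libraries with E2+ketamine, at 25.3 and 25.1 CPM, were the only ones above both. Libraries with 2R6R-HNK (11.8 and 12.7 CPM), E2+2R6R-HNK (11.3 and 12.5), E2 (15.8 and 14), 2S6S-HNK (16.7 and 13.9) and E2+2S6S-HNK (16.5 and 18.0) were below both. The largest falls were under E2+2R6R-HNK, at -0.82 (standard error 0.078, adjusted p = 2.4e-13), and 2R6R-HNK, at -0.78 (standard error 0.079, adjusted p = 1.62e-12). E2, 2S6S-HNK and E2+2S6S-HNK were called at -0.49, -0.46 and -0.28, the last lost without vehicle replicate 2 (adjusted p = 0.0915). Ketamine alone, at 20.7 and 21.3 CPM, differed from vehicle by 0.00 (95% interval -0.15 to 0.15). E2+ketamine was higher by 0.26 (standard error 0.074, adjusted p = 0.00142), a call lost without vehicle replicate 1 (0.16, adjusted p = 0.0996). Correction moved all 7 values upward. It ended 4 of the 5 falls, turned that of 2S6S-HNK to 0.22, and gave 0.50 for ketamine and 1.19 for E2+ketamine, all 3 called as higher. SLC7A11 shares 865 exon bases with SLC7A11-AS1 on the other strand, and whether counting used strand is not given in the sources used here. NQO1, GCLC and NFE2L2 likewise share 575, 252 and 190 exon bases with long noncoding RNA genes on the other strand, which are not listed in the count table.

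TXNRD1 and SRXN1 restore oxidized thioredoxin and peroxiredoxins, and both were lower than vehicle in all 7 treatments. TXNRD1, a cytosolic thioredoxin reductase at chr12:104609557-104744085 on the plus strand (GRCh37), was the most abundant of the 9 genes per length, at 70.2 CPM per kb over all libraries. The next were NQO1 at 34.3 and KEAP1 at 25.9, and the least abundant were GCLM at 2.5 and SLC7A11 at 1.8. TXNRD1 was at 381 and 389 CPM in the vehicle libraries. It was at 262 and 264 CPM with E2, 314 and 315 with ketamine, 231 and 228 with 2R6R-HNK, and 227 and 224 with 2S6S-HNK. With E2 added, it was at 250 and 239 CPM for ketamine, 211 and 211 for 2R6R-HNK, and 291 and 300 for 2S6S-HNK. No treated library reached vehicle, and E2+2R6R-HNK was lowest. Its log2 fold change was -0.87 (standard error 0.026, adjusted p = 1.11e-32), or 0.549-fold, against -0.29 (standard error 0.025, adjusted p = 2.59e-14) for ketamine, the smallest fall. The corrected values were all called, from -0.09 for ketamine to -0.56 for E2+2R6R-HNK. Among neighbours in the order of levels, 2S6S-HNK and 2R6R-HNK alone did not differ (0.02, adjusted p = 0.52).

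SRXN1, which reduces overoxidized peroxiredoxins, lies at chr20:627259-633844 on the minus strand (GRCh37). It shares 2292 exon bases with a protein-coding gene model on the same strand that is not listed in the count table. Vehicle libraries had 47.7 and 46.9 CPM. Those with E2 had 38.9 and 39.2 CPM, those with ketamine 36.5 and 35.6, those with 2R6R-HNK 34.8 and 34.8, and those with 2S6S-HNK 30.3 and 30.0. With E2, the libraries had 34.8 and 35.6 CPM for ketamine, 30.5 and 31.2 for 2R6R-HNK, and 32.9 and 32.4 for 2S6S-HNK. Every treated library was below vehicle. The log2 fold change ran from -0.28 (standard error 0.047, adjusted p = 9.04e-07) with E2 to -0.65 (standard error 0.048, adjusted p = 4.19e-17) with 2S6S-HNK. SRXN1 has a GC content of 51.7%, close to the median of 49.5% over the genes tested, and its falls grew with the correction, to between -0.38 and -0.78.

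The 2 TXNRD1 windows each hold a match wholly ahead of the start, and are shown with it in capitals. The first window holds a further match, GCTCCGTCA, from 8 bases before the start to its first base, of which the 8 bases ahead of the start end the printed sequence in lower case. They cover chr12:104215620-104215778 and chr12:104286870-104287031 on the plus strand (GRCh38.p14). The counts per gene do not separate transcripts from these starts.
TXNRD1 promoter, first start: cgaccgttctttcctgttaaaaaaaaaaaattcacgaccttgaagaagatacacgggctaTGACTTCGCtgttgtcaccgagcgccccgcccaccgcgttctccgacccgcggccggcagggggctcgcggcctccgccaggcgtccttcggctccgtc
TXNRD1 promoter, second start: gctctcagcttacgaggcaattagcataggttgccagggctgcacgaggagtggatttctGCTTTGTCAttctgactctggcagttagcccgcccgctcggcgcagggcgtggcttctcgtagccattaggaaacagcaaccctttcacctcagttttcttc

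NQO1, a quinone reductase widely used as a readout of NRF2, moved both ways. It lies at chr16:69740899-69760571 on the minus strand (GRCh37). Vehicle libraries had 76.5 and 72.9 CPM. Libraries with E2 had 100 and 98.6 CPM, those with 2R6R-HNK 108 and 112, and those with E2+ketamine 142 and 139. These 3 groups lay above every other, and on the log2 scale they rose over vehicle by 0.41, 0.55 and 0.91 (with standard errors of 0.036, 0.035 and 0.035; adjusted p = 2.25e-14, 2.74e-19 and 3.05e-28). Libraries with E2+2R6R-HNK, at 61.3 and 61.6 CPM, and E2+2S6S-HNK, at 56.9 and 59.6, lay below vehicle, at -0.28 (adjusted p = 1.62e-09) and -0.36 (adjusted p = 3.72e-12). Ketamine alone (76.4 and 77.7 CPM) and 2S6S-HNK alone (71.0 and 71.2) differed from vehicle by 0.04 (95% interval -0.03 to 0.11) and -0.07 (-0.15 to 0.00), neither called. The call for 2S6S-HNK appeared without vehicle replicate 2 (-0.11, adjusted p = 0.0309), and that for ketamine with upper-quartile scaling (0.13, adjusted p = 0.00182). The 3 rises grew with correction to 0.69, 0.87 and 1.34, and the fall under E2+2S6S-HNK stayed at -0.20. The fall under E2+2R6R-HNK was not called after correction (0.03, adjusted p = 0.524), and ketamine and 2S6S-HNK were then called as higher, at 0.25 and 0.24. The summed level of 4 epithelial markers (EPCAM, CDH1, KRT8 and KRT18) was likewise highest with E2+ketamine, at 730 to 733 CPM, and lowest with E2+2S6S-HNK, at 418 to 422, against 548 to 560 in vehicle. EPCAM and CDH1 did not exceed 1.18 and 3.20 CPM in any library. That of 4 neuronal markers (RBFOX3, SNAP25, SYT1 and TUBB3) was also highest with E2+ketamine, at 132 to 133 CPM, and with E2, at 132, and lowest with E2+2S6S-HNK, at 80.3 to 84.7, against 106 to 108 in vehicle. It came from TUBB3, since the other 3 did not exceed 0.483, 2.63 and 0.71 CPM. The sum of 8 fibroblast and pericyte markers was highest with E2 (6240 to 6280 CPM), 2R6R-HNK (6010 to 6030) and E2+ketamine (5830 to 6050), against 4720 in vehicle, the 3 groups in which NQO1 rose. The sum of 4 astrocyte markers was highest with E2+2R6R-HNK (10.3 to 10.9 CPM) and E2+2S6S-HNK (10 to 10.3), against 6.5 to 7.16 in vehicle. That of the 14 microglia and macrophage markers was highest with ketamine (28.3 to 28.8 CPM) and next with E2+2R6R-HNK (26 to 26.7), against 20.5 to 23.3 in vehicle. The part of these cells or genes in the result was not tested.

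HMOX1, which breaks down heme and is repressed by BACH1, lies at chr22:35776354-35790207 on the plus strand (GRCh37). The E2+ketamine libraries, at 25.9 and 25.3 CPM, stood above all others, which did not exceed 17.3. Vehicle libraries had 14.3 and 13.4 CPM. The rise under E2+ketamine was 0.89 on the log2 scale (standard error 0.071, adjusted p = 4.11e-16), or 1.85-fold, and 0.36 after correction (called). E2 (14.9 and 16.3 CPM), ketamine (16.3 and 16.8) and 2R6R-HNK (17.3 and 17.3) were also above both vehicle libraries. They were called at 0.18, 0.26 and 0.32, but none was called after correction (-0.12, 0.01 and -0.07). The call for E2 was also lost without E2 replicate 2 (adjusted p = 0.31) or vehicle replicate 2 (adjusted p = 0.225). Libraries with E2+2S6S-HNK, at 11.6 and 10.1 CPM, were the lowest, at -0.34 on the log2 scale (standard error 0.075, adjusted p = 8.97e-05), and -0.55 after correction. E2+2R6R-HNK, at 11.9 and 12.7 CPM, was called at -0.17 (adjusted p = 0.0408), which did not hold under DESeq2 (adjusted p = 0.149), with upper-quartile scaling (adjusted p = 0.301), or without vehicle replicate 1 (adjusted p = 0.247) or E2+2R6R-HNK replicate 1 (adjusted p = 0.242). With the correction it was called at -0.57 (adjusted p = 3.05e-10). 2S6S-HNK alone, at 13.7 and 13.3 CPM, differed by -0.04 (95% interval -0.19 to 0.12). It became -0.41 and called with the correction.

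**Figure D2:**
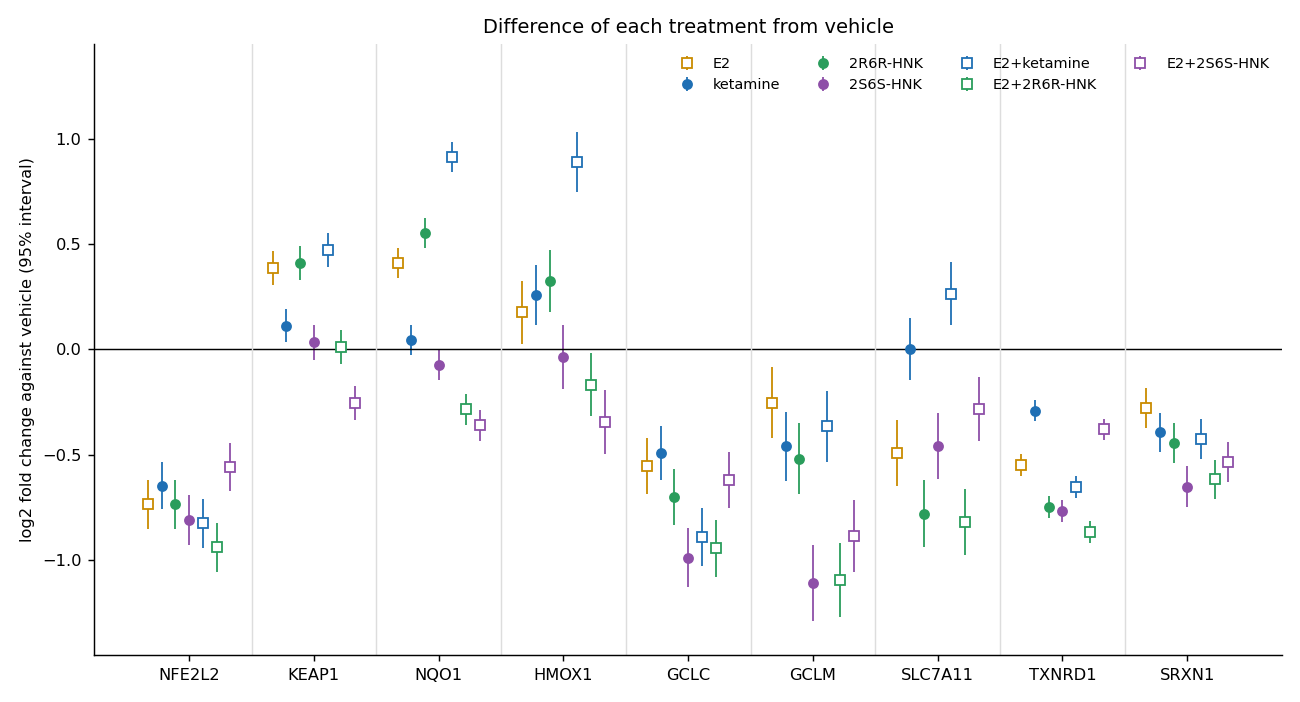
Log2 fold change against vehicle (vertical axis) of each gene under each of the 7 treatments, with its 95% interval. Circles are treatments without E2 and open squares treatments with it; all 7 treatments lie below 0 for NFE2L2, GCLC, GCLM, TXNRD1 and SRXN1.

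Over all 9 genes and 7 treatments, 57 of 63 differences from vehicle were called, 12 higher and 45 lower. All 7 comparisons use the same vehicle libraries and are not independent of each other. E2 gave 9 calls, 3 higher and 6 lower, where 62.5% of all genes were called, 29.9% higher and 32.7% lower. Ketamine gave 7, 2 higher and 5 lower, where 59.3% of all genes were called (26.8% and 32.5%). 2R6R-HNK gave 9, 3 higher and 6 lower, against 66.6% (31.7% and 34.9%), and 2S6S-HNK gave 6, all lower, against 67.9% (32.1% and 35.8%). With E2, ketamine gave 9, 4 higher and 5 lower, against 71.7% (34.3% and 37.4%). E2+2R6R-HNK gave 8, all lower, against 69.7% (33.4% and 36.3%), and E2+2S6S-HNK gave 9, all lower, against 59.7% (24% and 35.7%). With most of the genes tested called, the number called says little about these 9 by itself, and no test of the list against other genes was made. The libraries of E2, 2R6R-HNK, E2+ketamine and E2+2S6S-HNK did not overlap vehicle in 9 of 9 genes, where 78.8%, 81.6%, 84.4% and 78% of all genes did not. For ketamine this held for 7 genes (78.2%), for 2S6S-HNK for 8 (81.5%) and for E2+2R6R-HNK for 8 (83.6%). The direction leaned downward: the median log2 fold change of the 9 genes was between -0.28 (E2) and -0.82 (E2+2R6R-HNK), where the median of all genes was between 0.00 and -0.06.

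The correction for GC content and length changed this picture by gene. It kept 40 of the 57 calls in their direction and turned 5 into calls of the opposite direction. The calls were then 2 higher and 4 lower under E2, 2 and 5 under ketamine, 1 and 4 under 2R6R-HNK, and 2 and 7 under 2S6S-HNK. With E2 added they were 4 higher and 5 lower for ketamine, 0 and 7 for 2R6R-HNK, and 0 and 8 for 2S6S-HNK. The same correction called 36.7% of all genes under E2, 48.7% under ketamine, 44% under 2R6R-HNK and 56.2% under 2S6S-HNK. With E2 added it called 51.5% for ketamine, 58.8% for 2R6R-HNK and 56.1% for 2S6S-HNK. These corrected shares were not split into higher and lower. NFE2L2, GCLC, TXNRD1 and SRXN1 were called as lower in 7 of 7 treatments both ways. How many of all genes were lower in all 7, which share the same vehicle libraries, was not counted. The GC-poor SLC7A11 and GCLM moved up with correction, and the GC-rich HMOX1 and KEAP1 moved down. The median of the 9 genes stayed negative, from -0.07 (2R6R-HNK) to -0.53 (E2+2R6R-HNK). The median of all genes after correction was between -0.01 (2R6R-HNK) and -0.05 (E2+2S6S-HNK).

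**Figure D3:**
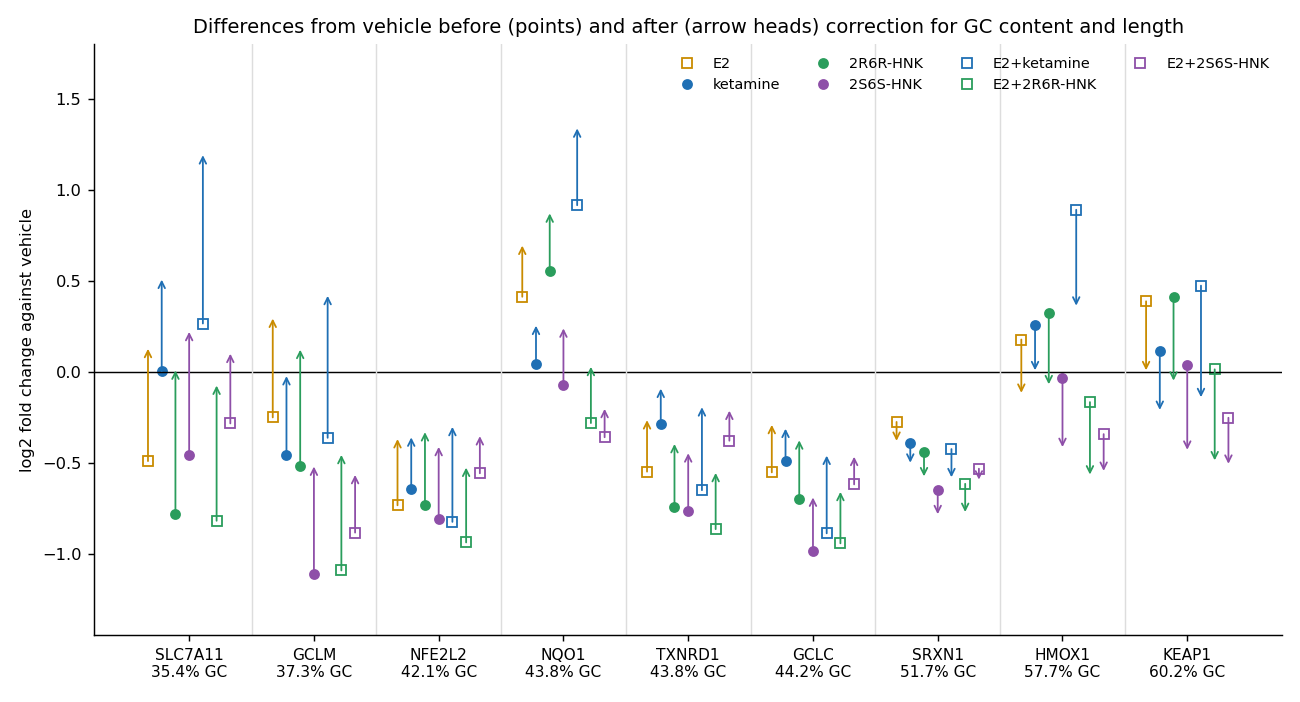
Log2 fold change against vehicle (vertical axis) before correction (points) and after correction for GC content and length (arrow heads), with genes ordered by the GC content of their transcript. Arrows point up for the 6 genes at 44.2% GC or less and down for the 3 at 51.7% or more.

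The compounds were compared at 400 nM after 24 h, in 6 pairs, 3 without and 3 with E2, which gave 54 differences for the 9 genes. Of these 43 were called, and 32 were called in the same direction after correction. Ketamine and 2R6R-HNK differed in 5 of 9 genes, where 45.4% of all genes were called. SLC7A11 was higher with ketamine by 0.78 (standard error 0.077, adjusted p = 3.11e-12) and TXNRD1 by 0.46 (standard error 0.026, adjusted p = 2.6e-20), while NQO1 was lower by a log2 difference of -0.51 (standard error 0.035, adjusted p = 2.06e-17) and KEAP1 by -0.30. These 4 were called with correction too, at 0.50, 0.30, -0.62 and -0.16. GCLC, at 0.21, was not called after correction or without 2R6R-HNK replicate 2 (adjusted p = 0.0519). For the other 4 genes the differences and 95% intervals were 0.09 (-0.03 to 0.20) for NFE2L2, -0.07 (-0.20 to 0.07) for HMOX1, 0.06 (-0.11 to 0.23) for GCLM and 0.05 (-0.04 to 0.14) for SRXN1. These intervals limit the size of a difference and do not show that the compounds act alike.

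Ketamine and 2S6S-HNK differed in 8 of 9 genes, all higher with ketamine, where 46.1% of all genes were called and 22% were higher. GCLM differed by 0.65 (standard error 0.09, adjusted p = 2.94e-08), GCLC by 0.50, TXNRD1 by 0.48, SLC7A11 by 0.46, HMOX1 by 0.29 and SRXN1 by 0.26, and these 6 were called after correction too. The differences of NFE2L2 (0.16) and NQO1 (0.12) were lost with it, that of NFE2L2 also without 2S6S-HNK replicate 2 (0.04, adjusted p = 0.674) or ketamine replicate 1 (0.13, adjusted p = 0.181), and that of NQO1 without ketamine replicate 2 (adjusted p = 0.0598). KEAP1 differed by 0.08 (95% interval 0.00 to 0.16) and was called only after correction, at 0.22. The 2 stereoisomers differed in 7 genes, where 43.5% were called. NQO1 was higher with 2R6R-HNK than with 2S6S-HNK by 0.63 (standard error 0.036, adjusted p = 3.6e-20), GCLM by 0.59, KEAP1 by 0.38, HMOX1 by 0.36, GCLC by 0.29 and SRXN1 by 0.21. SLC7A11 was lower, at -0.32. All 7 were called after correction, and the GC trend between these 2 groups was weak (Spearman correlation 0.0331). The difference of SLC7A11 was lost without 2S6S-HNK replicate 1 (-0.19, adjusted p = 0.126). NFE2L2 differed by 0.07 (95% interval -0.05 to 0.20), which was called without 2S6S-HNK replicate 1 (0.20, adjusted p = 0.0156). TXNRD1 differed by 0.02 (-0.03 to 0.07), and by 0.05 with a call after correction.

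With E2 present, E2+ketamine exceeded E2+2R6R-HNK in 7 of 9 genes, where 52% of all genes were called and 25.3% were higher, and in NQO1, SLC7A11 and HMOX1 by log2 differences of 1.20, 1.08 and 1.06 (standard errors 0.035, 0.077 and 0.07; adjusted p = 6.23e-32, 4.38e-17 and 3.72e-18). These 3 passed the limit of 1, as did 3.09% of all genes, and were 1.31, 1.27 and 0.93 after correction. GCLM, KEAP1, TXNRD1 and SRXN1 were higher by 0.73, 0.46, 0.21 and 0.19, and by 0.87, 0.35, 0.36 and 0.19 after correction. NFE2L2 differed by 0.11 (95% interval -0.01 to 0.235) and GCLC by 0.06 (-0.09 to 0.20), neither called before correction and both called after it, at 0.22 and 0.20. E2+ketamine and E2+2S6S-HNK differed in 9 genes, where 66.8% were called and 5.62% passed the limit of 1, among them NQO1 and HMOX1. NQO1, HMOX1, KEAP1, SLC7A11 and GCLM were higher with E2+ketamine by 1.28, 1.23, 0.73, 0.55 and 0.52, and these remained called with correction, at 1.54, 0.91, 0.37, 1.09 and 0.98. SRXN1 was higher by 0.11, a call lost without any 1 of the 4 libraries. NFE2L2, GCLC and TXNRD1 were lower with E2+ketamine, each at a log2 difference of -0.27, and after correction they differed by 0.05, 0.01 and 0.02, none called. E2+2R6R-HNK and E2+2S6S-HNK differed in 7 genes (54% of all genes). TXNRD1, NFE2L2 and GCLC were lower with E2+2R6R-HNK, at -0.49, -0.38 and -0.32, and stayed so with correction, at -0.34, -0.17 and -0.19. SLC7A11 was lower by -0.54 before correction only. KEAP1 was higher by 0.27 and HMOX1 by 0.18 before correction only, and GCLM was called at -0.21 (adjusted p = 0.0471). The calls of GCLM and HMOX1 did not hold under DESeq2 (adjusted p = 0.109 and 0.0509). They were also lost without E2+2R6R-HNK replicate 2 (adjusted p = 0.334 and 0.262) or E2+2S6S-HNK replicate 2 (adjusted p = 0.0931 and 0.47), and that of GCLM without E2+2S6S-HNK replicate 1 (adjusted p = 0.151). NQO1 differed by 0.08 (95% interval 0.005 to 0.152) and SRXN1 by -0.08 (-0.18 to 0.01), neither called before correction. Both were called after it, at 0.23 and -0.18. NQO1 was also called under DESeq2 (adjusted p = 0.0389) and without E2+2S6S-HNK replicate 2 (adjusted p = 0.0336).

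**Figure D4:**
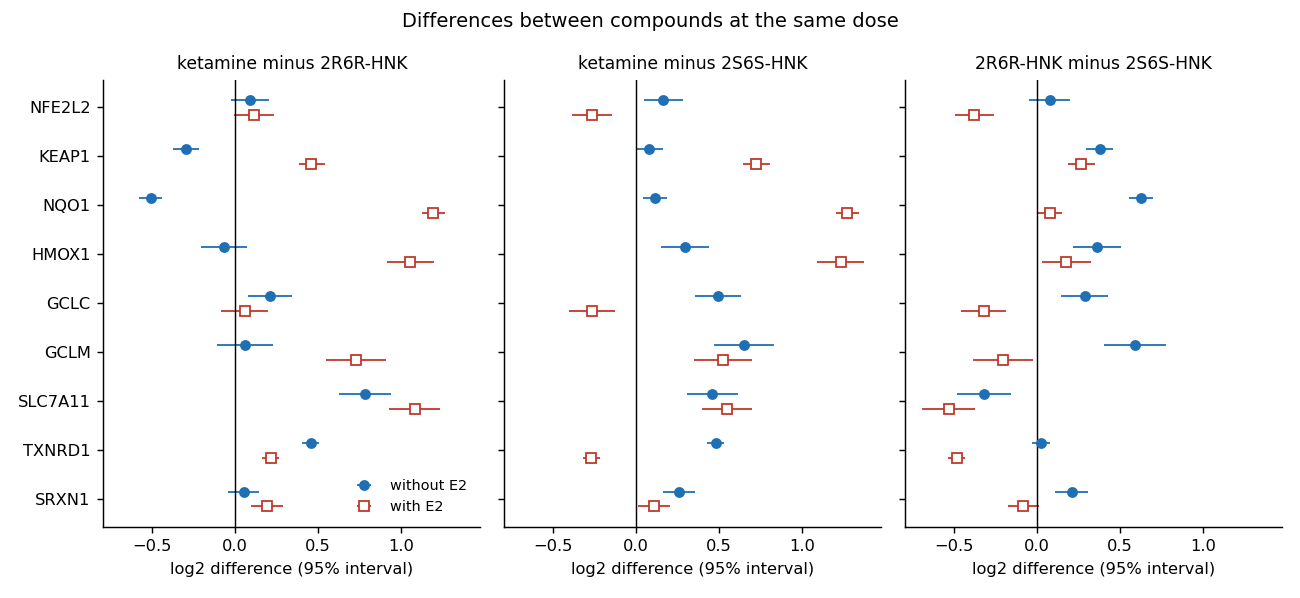
Log2 difference between compounds at 400 nM (horizontal axis, with its 95% interval) for each gene, without E2 (filled circles) and with E2 (open squares). NQO1 lies at -0.51 for ketamine minus 2R6R-HNK without E2 and at 1.20 with E2.

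Each compound was also compared with and without E2, to see whether the hormone alters these levels in treated cells. E2+ketamine differed from ketamine in 7 genes (57.5% of all genes) and from E2 in 6 (50.3%). NQO1, HMOX1 and SLC7A11 exceeded E2 alone by 0.50, 0.71 and 0.76, and ketamine alone by 0.87, 0.63 and 0.26. Each of these 6 differences was called with correction too. Lower than E2 alone were GCLC at -0.33, SRXN1 at -0.15 and TXNRD1 at -0.10. After correction SRXN1 alone of these was still called lower (-0.20), while GCLC was not called (-0.17) and TXNRD1 was called higher (0.07). The call of SRXN1 was lost without E2+ketamine replicate 1 (adjusted p = 0.0589) and that of TXNRD1 without E2+ketamine replicate 2 (adjusted p = 0.0513). NFE2L2, KEAP1 and GCLM differed from E2 by -0.09, 0.09 and -0.11, none called, although KEAP1 was called higher under DESeq2 (adjusted p = 0.0218), without E2 replicate 1 (0.145, adjusted p = 0.0105) or without E2+ketamine replicate 1 (0.114, adjusted p = 0.0441), and lower after correction (-0.15). Lower than ketamine alone were GCLC at -0.40, TXNRD1 at -0.36 and NFE2L2 at -0.18, of which TXNRD1 was still called after correction (-0.10). The call of NFE2L2 was also lost without ketamine replicate 1 (adjusted p = 0.101). KEAP1 was higher than with ketamine by 0.36, a call lost with correction (0.07), and GCLM and SRXN1 differed by 0.10 and -0.03, neither called, although GCLM was called after correction, at 0.44. E2+2R6R-HNK was lower than E2 in all 9 genes (50.5% of all genes called, 25.4% lower) and lower than 2R6R-HNK in 8 (47.9% called, 23.8% lower), with or without correction. Of these 17 calls, SLC7A11 against E2 was lost without E2 replicate 1 (adjusted p = 0.0516) and GCLC against 2R6R-HNK without E2+2R6R-HNK replicate 2 (adjusted p = 0.054). Against E2 the values were -0.84 for GCLM, -0.69 for NQO1, -0.39 for GCLC, -0.37 for KEAP1, -0.34 for HMOX1 and SRXN1, -0.33 for SLC7A11, -0.32 for TXNRD1 and -0.20 for NFE2L2. Against 2R6R-HNK they were -0.84 for NQO1, -0.57 for GCLM, -0.49 for HMOX1, -0.40 for KEAP1, -0.24 for GCLC, -0.20 for NFE2L2, -0.17 for SRXN1 and -0.12 for TXNRD1, while SLC7A11, at -0.04, was not called. E2+2S6S-HNK differed from E2 in 8 genes (55.1%) and from 2S6S-HNK in 8 (51.3%). Lower than E2 were NQO1 at -0.77, KEAP1 at -0.64, GCLM at -0.63, HMOX1 at -0.52 and SRXN1 at -0.26, all 5 also called lower after correction. SLC7A11 at 0.21, NFE2L2 at 0.18 and TXNRD1 at 0.17 were higher, of which TXNRD1 alone was called after correction (0.05). Those of SLC7A11 and NFE2L2 were also lost without E2 replicate 2 (adjusted p = 0.289 and 0.0576) or E2+2S6S-HNK replicate 2 (adjusted p = 0.201 and 0.0555). GCLC differed from E2 by -0.07 (95% interval -0.20 to 0.07) and was called after correction, at -0.17. Against 2S6S-HNK, TXNRD1 at 0.39, GCLC at 0.37, NFE2L2 at 0.25, GCLM at 0.22 and SRXN1 at 0.12 were higher, and HMOX1 at -0.31, NQO1 at -0.29 and KEAP1 at -0.29 were lower. TXNRD1, GCLC, SRXN1 and NQO1 kept their call after correction. The value of NFE2L2 ran from 0.13 to 0.38 with single libraries left out, and its call was lost without 1 of them. SLC7A11, at 0.17, was not called, but was with upper-quartile scaling (adjusted p = 0.0242) and without 2S6S-HNK replicate 1 (adjusted p = 0.00512) or E2+2S6S-HNK replicate 1 (adjusted p = 0.0297). Without 2S6S-HNK replicate 2 the calls fell to 5 genes, and those of GCLM and SRXN1 did not hold under DESeq2 (adjusted p = 0.0947 and 0.0778), nor that of SRXN1 without any 1 of the 4 libraries, nor that of GCLM without either E2+2S6S-HNK library.

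The interaction, the effect of a compound with E2 minus its effect without, tests whether the 2 differ. It was called in 7 genes for ketamine, all positive, where 37.5% of all genes were called and 24.5% were positive, in 8 for 2R6R-HNK (56.6%) and in 9 for 2S6S-HNK (65.1%). NQO1 had the largest, at -1.25 for 2R6R-HNK (standard error 0.05, adjusted p = 2.46e-26), which was before correction the 1 value past the limit of 1, where 5.68% of all genes passed, and it was -1.53 with correction. NQO1 was higher by 0.55 with 2R6R-HNK than with vehicle, whereas E2+2R6R-HNK stood at -0.69 against E2. For ketamine, SLC7A11 at 0.75, NFE2L2 at 0.55, NQO1 at 0.46 and HMOX1 at 0.46 were called with and without correction. Those of GCLM (0.35) and SRXN1 (0.24) were lost with upper-quartile scaling (adjusted p = 0.0754 and 0.0582). With the GC and length correction GCLM was not called (0.15, adjusted p = 0.334), and SRXN1 (0.30) and TXNRD1 (0.19, then 0.17) kept their calls. For 2S6S-HNK, NFE2L2 at 0.98, TXNRD1 at 0.94 and GCLC at 0.92 were called both ways, and at 0.43, 0.50 and 0.52 with correction. E2 and 2S6S-HNK each lowered these 3 genes, and together they left them nearer to vehicle than the sum of the 2 effects. GCLM and SLC7A11 with 2S6S-HNK turned from 0.48 and 0.67 to -0.34 and -0.24 with correction, called each time.

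Levels across the 16 libraries fell into patterns that are given as a description, since the libraries share groups and the GC trend. Pearson correlations of log2 CPM were 0.937 between KEAP1 and NQO1, 0.927 between NQO1 and HMOX1, and 0.845 between KEAP1 and HMOX1. They were 0.912 between NFE2L2 and GCLC, 0.918 between GCLC and TXNRD1, 0.895 between NFE2L2 and TXNRD1, and 0.908 between GCLM and SRXN1. Between NFE2L2 and KEAP1 the value was -0.335, and between NFE2L2 and its readout NQO1 it was -0.192. Among 10373 genes with a mean of at least 5 CPM, those most like HMOX1 were SLC1A5 (0.968), a glutamine transporter, and SLC3A2 (0.966), the partner subunit of SLC7A11. Those most like TXNRD1 were RAB10 (0.986) and SLC38A2 (0.984), those most like SRXN1 were CCND1 (0.986) and NETO2 (0.979), and those most like NQO1 were ILKAP (0.985) and GPS2 (0.983). For NFE2L2 they were NXT2 (0.982) and USP1 (0.98), for KEAP1 CARD10 (0.987) and FHOD1 (0.986), for GCLC LBR (0.986) and SRSF10 (0.984), and for GCLM LOC100129361 (0.966) and DERL2 (0.964). SLC7A11 had the least similar neighbours, PFDN4 at 0.862 and BDNF at 0.842.

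Other genes of the pathway were counted in 8 lists of 116 genes, of which 110 were tested. With E2+ketamine, 63 were called higher and 33 lower, or 87.3% of those tested against 71.7% of all genes, and after correction 58 were higher and 24 lower. With E2+2S6S-HNK, 36 were higher and 40 lower (69.1% against 59.7% of all genes), and 28 and 47 after correction. The other 5 treatments gave 50 to 57 higher and 31 to 34 lower, or 73.6% to 80.9% of the listed genes where 59.3% to 69.7% of all genes were called. With correction they gave 32 to 46 higher and 20 to 38 lower. The share of all genes called was then 36.7% with E2, 48.7% with ketamine, 44% with 2R6R-HNK, 56.2% with 2S6S-HNK and 58.8% with E2+2R6R-HNK. The median log2 fold change over the lists ranged from -0.06 with E2+2S6S-HNK to 0.33 with E2+ketamine.

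**Figure D5:**
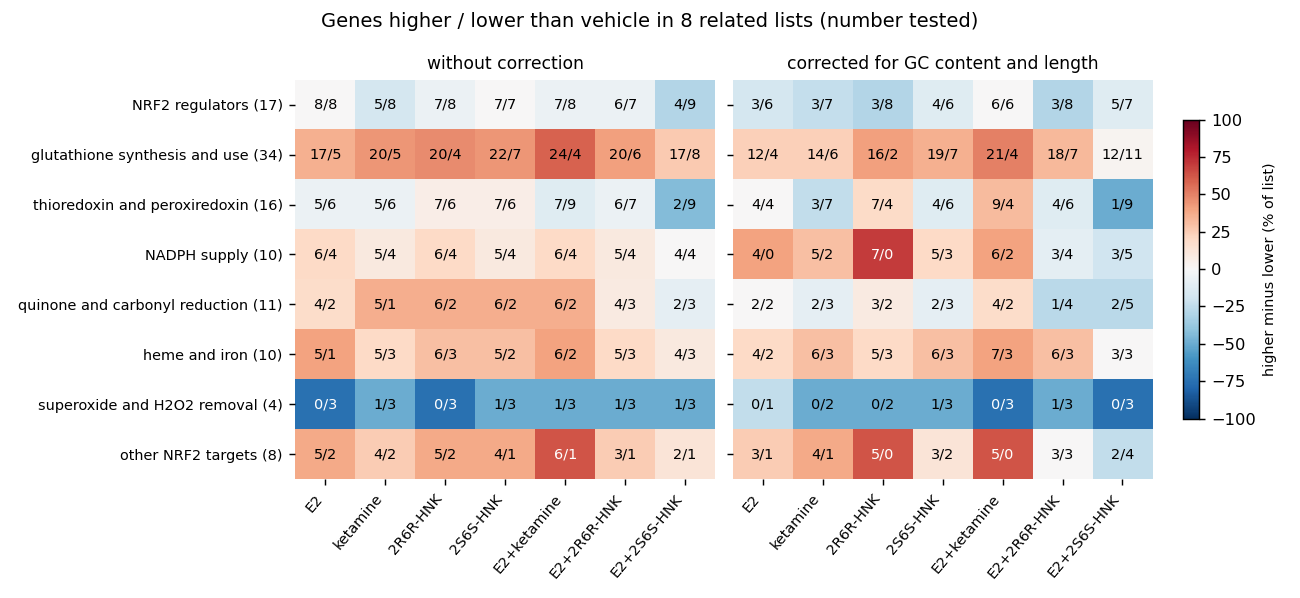
Number of genes called higher and lower than vehicle (higher/lower in each cell) in 8 lists of related genes under the 7 treatments, without correction (left) and with correction for GC content and length (right); the colour gives the higher minus the lower as a percent of the list. Glutathione genes range from 24/4 with E2+ketamine to 17/8 with E2+2S6S-HNK before correction and reach 12/11 with E2+2S6S-HNK after it, and genes removing superoxide and hydrogen peroxide are at 0/3 or 1/3 before correction.

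The counts per list are to be read against the shares of all genes called. These were 34.3% higher and 37.4% lower with E2+ketamine (51.5% in all after correction), 33.4% and 36.3% with E2+2R6R-HNK (58.8%), and 24% and 35.7% with E2+2S6S-HNK (56.1%). Glutathione synthesis and use was the largest list, with 34 genes tested. It had 24 higher and 4 lower with E2+ketamine, and 17 higher and 8 lower with E2+2S6S-HNK, and 21 and 4, and 12 and 11, after correction. CHAC1, which degrades glutathione, rose by 1.13 with E2+ketamine, while CHAC2, its relative, and ABCC4, an efflux transporter, fell by 1.32 and 1.17 with E2+2R6R-HNK. After correction they were at 0.46, -0.61 and -0.78. Of 17 NRF2 regulators, 7 were higher and 8 lower with E2+ketamine. BACH1, which competes with NRF2 at HMOX1 and other targets, and CUL3, the scaffold of the ligase that KEAP1 serves, had log2 fold changes of -0.99 (standard error 0.039) and -0.99 (standard error 0.044) with E2+ketamine, which correction reduced to -0.23 and -0.18. SQSTM1, an autophagy receptor that sequesters KEAP1, was at 0.93 and 0.46 after correction.

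Of 16 thioredoxin and peroxiredoxin genes, 6 were higher and 7 lower with E2+2R6R-HNK. TXN, the thioredoxin that TXNRD1 recycles, and PRDX1, a peroxiredoxin that SRXN1 repairs, were at -1.12 and -0.94 there, and at -0.37 and -0.71 after correction. PRDX5 was at 0.93 with E2+ketamine and 0.31 after correction. Of 4 genes that remove superoxide and hydrogen peroxide, 1 was higher and 3 were lower with E2+2R6R-HNK before and after correction. The lower ones were SOD2 (-0.98), SOD1 (-0.95) and CAT (-0.62), or -0.49, -0.60 and -0.39 with it. The higher one was SOD3, at 1.46 (standard error 0.3, adjusted p = 1.7e-05), which averaged under 5 CPM and is named outside the rule, after its values were seen. NADPH supply had 6 of 10 genes higher and 4 lower with E2+ketamine, among them PGLS of the pentose phosphate pathway at 1.27 and, corrected, 0.45. IDH2, a mitochondrial source of NADPH, was at 1.06 and malic enzyme ME1 at -0.94 with E2+2R6R-HNK, and at 0.72 and -0.40 after correction.

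In the heme and iron list, 6 of 10 genes were higher and 2 lower with E2+ketamine. FTL, the ferritin light chain, was at 1.04 there and 0.61 after correction, and BLVRB, which acts on a product of heme breakdown, was at 0.90 and 0.26. FTL and PRDX1 have processed pseudogenes, so their counts may lack reads that map to more than 1 place. TFRC, the transferrin receptor, was at -1.33 with 2S6S-HNK and -0.86 after correction. In quinone and carbonyl reduction, 6 of 11 genes were higher and 2 lower with E2+ketamine. EPHX1 was at 0.92 and ALDH3A2 at -0.72 there, and AKR1A1 was at 0.87 with E2+2R6R-HNK, and they were at 0.47, -0.35 and 0.53 after correction. Of 8 other NRF2 targets, 6 were higher and 1 lower with E2+ketamine. PHGDH, the first enzyme of serine synthesis, was at 1.39 and ABHD4 at 0.96 there, and FBXO30 was at -1.53 with E2+2R6R-HNK. With correction these were 0.85, 0.68 and -0.77. All 24 genes named from the lists kept their direction and their call after correction.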

How the data were processed

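The authors prepared amplified cDNA libraries from total RNA of HMC3 cells, aligned paired reads to hg19 and counted reads per gene; the submitters' processing notes name TopHat2 2.0.14, Bowtie2 2.2.6 and featureCounts 1.4.6. The values the authors deposited are raw counts per gene without normalization. Of counts from 1 to 9, 65.8% were even, against 49.9% of high counts, so counts were also halved as an alternative. Totals were 55300614 to 81646165.

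Genes were filtered with filterByExpr and scaled by TMM in edgeR 4.0.16 (R 4.3.3, limma 3.58.1), and 1 quasi-likelihood fit with a mean per group over all 16 libraries gave 22 comparisons. Levels are CPM (counts relative to the TMM-scaled library size), and log CPM used a prior count of 2. Python 3.11.15 was used for annotation and motifs. Positions, transcript length and GC content came from GRCh37 gene models (MANE Select transcripts for the 9 genes), and 96% of tested genes had a GC content. GC content and length were corrected by loess (span 0.5) in each library, with the fitted trend as an offset. Alternatives were DESeq2 1.42.0 (default settings), its size factors, upper-quartile scaling, no filter, at least 10 counts in every library, the groups compared only, a replicate block, the correction, and each library left out. Those for the wider lists were added after the data were seen.

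All 9 genes are reported in every comparison. From each wider list at most 3 genes are named, those with the largest change from vehicle among called genes that averaged 5 CPM or more and whose libraries lay on 1 side of vehicle, and for each of the 9 genes the 2 most correlated genes. The 9 genes and all lists were chosen with earlier results of these data known. The procedure was also run on simulated counts for ketamine against vehicle, in which most genes were unchanged and no GC trend was built in. It called 46.3%, 77.6% and 77.3% of genes given log2 changes of 0.25, 0.5 and 1 in size, and 12 unchanged genes. In the real data most genes tested differed from vehicle and differences followed GC content, a setting that this run does not cover.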

Additional observations from a re-analysis of the deposited data

Results flagged for a closer look

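For 24 of 27 combinations of gene and compound, the effect of the compound with E2 differed from its effect without E2 (edgeR quasi-likelihood test of the interaction, Benjamini-Hochberg adjustment; log2 scale, effect with E2 minus effect without, 2 libraries per group). The same test called 37.5% of all genes for ketamine, 56.6% for 2R6R-HNK and 65.1% for 2S6S-HNK. For 2R6R-HNK the difference was 0.53 for NFE2L2, -0.79 for KEAP1, -1.25 for NQO1, -0.67 for HMOX1, 0.31 for GCLC, -0.32 for GCLM, 0.43 for TXNRD1 and 0.45 for SLC7A11. For 2S6S-HNK it was 0.98 for NFE2L2, -0.67 for KEAP1, -0.70 for NQO1, -0.48 for HMOX1, 0.92 for GCLC, 0.48 for GCLM, 0.94 for TXNRD1, 0.39 for SRXN1 and 0.67 for SLC7A11. For ketamine it was 0.55 for NFE2L2, 0.46 for NQO1, 0.46 for HMOX1, 0.35 for GCLM, 0.19 for TXNRD1, 0.24 for SRXN1 and 0.75 for SLC7A11. Not called were KEAP1 (-0.03, 95% interval -0.14 to 0.085) and GCLC (0.16, -0.03 to 0.35) with ketamine. SRXN1 with 2R6R-HNK (0.10, 95% interval -0.03 to 0.24) was not called either, but was after the GC and length correction, at 0.185. After the GC and length correction, 16 of the 24 were called in the same direction and 2 in the opposite one. The corrected test called 36.1% of all genes for ketamine, 43.1% for 2R6R-HNK and 39.5% for 2S6S-HNK. Calls lost with it were those of NFE2L2 (0.18), GCLC (0.01) and SLC7A11 (-0.21) with 2R6R-HNK. Also lost were those of KEAP1 (-0.08) and HMOX1 (-0.01) with 2S6S-HNK, and of GCLM (0.15) with ketamine. The values for GCLM with ketamine and with 2R6R-HNK each lost their call when any of 4 of the 8 libraries was left out, at 0.22 to 0.32 and -0.29 to -0.19. With upper-quartile scaling those of GCLM and SRXN1 with ketamine were not called (0.26 and 0.16). Groups of 2 libraries are too small for a test of a single sample that stands apart.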

How the results depend on the processing

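Of 198 values (9 genes in 22 comparisons), none changed sign with a call at stake under DESeq2, its size factors, upper-quartile scaling, other filters, halved counts, the compared groups only or the replicate block. These settings ended 1 to 6 calls each and added 0 to 4. Upper-quartile scaling shifted the median of all genes against vehicle by 0.062 to 0.104. Leaving out single libraries gave 900 values, of which 49 lost and 7 gained a call. For E2+2S6S-HNK against 2S6S-HNK, the genes called ranged from 5 to 8, with 5 without 2S6S-HNK replicate 2. The replicate numbers did not pair the libraries (correlations of deviations -0.0258 to 0.0451), and the replicate block ended 1 call. The cause of these changes was not tested.

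The GC and length correction ended 39 of 170 calls, turned 8 into calls of the opposite direction and added 16; 29 values with a call before or after it changed sign. The genes called went from 9 to 5 for 2R6R-HNK against vehicle, from 9 to 5 for E2+ketamine against E2+2S6S-HNK, and from 8 to 4 for E2+2S6S-HNK against 2S6S-HNK, with the same counts when the block was added. In the same order, and without the block, the share of all genes called fell from 66.6% to 44%, from 66.8% to 55.4% and from 51.3% to 30.1%. The reversed values follow, with that under correction and block together in brackets where its rounding differs.
NFE2L2 became 0.051 (0.052) for E2+ketamine against E2+2S6S-HNK and 0.057 (0.058) against ketamine.
KEAP1 became -0.21 for ketamine, -0.05 for 2R6R-HNK, -0.43 for 2S6S-HNK, -0.14 for E2+ketamine and -0.49 for E2+2R6R-HNK against vehicle, and -0.15 for E2+ketamine against E2.
NQO1 became 0.24 for 2S6S-HNK and 0.026 for E2+2R6R-HNK against vehicle.
HMOX1 became -0.12 for E2 and -0.07 for 2R6R-HNK against vehicle, and -0.019 for E2+2R6R-HNK against E2+2S6S-HNK.
GCLC became 0.007 for E2+ketamine against E2+2S6S-HNK.
GCLM became 0.29 for E2, 0.12 for 2R6R-HNK and 0.42 for E2+ketamine against vehicle, 0.11 for E2+2R6R-HNK against E2+2S6S-HNK, -0.047 (-0.046) for E2+2S6S-HNK against 2S6S-HNK, and -0.34 for its interaction with 2S6S-HNK.
TXNRD1 became 0.02 for E2+ketamine against E2+2S6S-HNK and 0.071 against E2.
SLC7A11 became 0.12 (0.13) for E2, 0.006 (0.007) for 2R6R-HNK, 0.22 for 2S6S-HNK and 0.10 for E2+2S6S-HNK against vehicle, -0.027 for E2+2S6S-HNK against E2, and -0.21 and -0.24 (-0.25) for the interactions with 2R6R-HNK and 2S6S-HNK.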
